A study of Mus musculus with 15 samples.

Results

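MERVL and the MaLR elements are related families of mouse LTR retrotransposons, and their long RNA and their piRNAs were followed here in foetal germ cells with and without TEX15. In the long RNA, the members were the repeat consensus sequences whose names start with MERVL, MT2, MTA, MTB, MTC, MTD, MTE or ORR1, which gave 9 of 359 consensus sequences in the gonocyte libraries and 8 of 328 in the P20 testis libraries. In the small RNA, the members were the transposon names whose class starts with ERVL, which gave 216 of 858 names, of which 109 were ERVL, 104 were ERVL-MaLR and 3 were marked ERVL with a question mark. Reads of 25 to 30 nt, the length range of foetal piRNAs, were summed per name, and they comprised 956484 distinct member sequences over all libraries.

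MERVL is an endogenous retrovirus of the ERVL class that still has open reading frames for its own proteins, and its LTR, called MT2_Mm, is best known as a promoter that is active in the 2-cell embryo. MaLR elements (the MT, ORR1 and MLT subfamilies) have LTRs of related sequence but no coding capacity of their own, and MTA is the youngest of the MT subfamilies in the mouse. In foetal male germ cells, PIWI proteins cut transposon RNA into piRNAs: a primary piRNA tends to start with U, its partner from the opposite strand tends to have A at position 10, and the partners overlap by 10 nt at their 5′ ends, a pattern known as ping-pong.

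Tex15+/- animals served as controls for Tex15-/- animals at E16.5, with 3 libraries per genotype for the RNA-seq of sorted gonocytes and 3 per genotype for the small RNA of foetal testes, for which 6 testes were pooled per library. A further 3 RNA-seq libraries came from whole Tex15-/- testes at P20, each from 1 testis, and had no control here. The Tex15 null allele was made by genome editing, descends from a single founder and was on a mixed B6CBAF1/Crl and C57BL/6N background, and the gonocytes of both genotypes were sorted by a Miwi2 tdTomato reporter allele. Gonocytes and small RNA came from different samples, so that replicate numbers do not link the assays, and no label states whether replicates came from separate litters, so that the p-values measure only the spread between these libraries.

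The gonocyte libraries held 662394 to 1277612 reads on repeat consensus sequences and 4893265 to 5697020 reads on genes, and the small RNA libraries held 1995803 to 23244351 transposon reads of 25 to 30 nt. Tex15 itself, the edited gene, still gave some transcript. It was at 1491, 1647 and 1635 TMM-scaled counts per 1000000 gene reads (CPM) in the controls and at 463, 229 and 247 in Tex15-/- gonocytes. Its log2 fold change was −2.35 ± 0.23 SE (edgeR quasi-likelihood adjusted p = 0.011). Values of single genes that passed the filter on low counts are TMM-scaled. Genes below the filter, and sums over marker or 2-cell genes, are given as CPM without TMM scaling. Germ cell markers (8 of 8 tested) summed to 3255 to 3313 CPM in the controls and 3007 to 3233 in Tex15-/- gonocytes, and none was called. Markers of most somatic cell types were higher than in any control in Tex15-/- replicates 2 and 3, and those of endothelial cells in replicate 2 alone: Leydig cell markers (4 of 4 present) summed to 17.8 to 61.1 CPM in the controls and to 34.5, 529 and 166 in Tex15-/- replicates 1, 2 and 3, and interstitial markers (4 of 4) to 42.4 to 51.5 against 43.9, 775 and 194. Sertoli cell markers (4 of 4) summed to 9.61 to 11.5 CPM in the controls against 11.8, 94.1 and 60.6, endothelial markers (4 of 4) to 53.4 to 57.2 against 41.1, 189 and 51.5, and blood markers (4 of 4) to 5.21 to 8.81 against 6.58, 30.4 and 30.8. Tex15-/- replicates 2 and 3 therefore stood apart in the RNA-seq of gonocytes. In the small RNA, Tex15-/- replicate 2 stood apart with 1995803 transposon reads of 25 to 30 nt, the lowest depth. It also had the lowest share of such reads, 1995803 among 11184854 reads of 18 to 32 nt, against 3535450 among 13781568 in control replicate 1. Its composition thus differed as well as its depth.

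The sequences below show what these piRNAs are. For 8 of the named members, the 25 to 30 nt sequence with the highest mean share over the 6 libraries is given, with positions 1 and 10 in capitals.
MERVL-int: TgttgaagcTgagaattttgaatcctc
MT2_Mm: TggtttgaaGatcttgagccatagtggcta
MTA_Mm: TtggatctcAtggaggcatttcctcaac
MTA_Mm-int: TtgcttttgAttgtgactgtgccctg
MTD: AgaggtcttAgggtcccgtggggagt
MTC: TaagatctgGctgagggcgaccttgc
ORR1A0-int: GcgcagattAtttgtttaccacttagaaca
ORR1A2: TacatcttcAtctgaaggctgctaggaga

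The MERVL-int sequence matched the GRCm38.p6 genome exactly at 429 places and the MT2_Mm sequence at 1313, so that neither can be placed at a single copy. The MTC sequence matched at 1 place, the minus strand of chr8:8988175-8988200, which is intergenic in the annotation, and it was at 63.6, 48.9 and 55.2 reads per 1000000 transposon reads of 25 to 30 nt (hereafter ppm) in the controls and at 18.4, 6.01 and 16.6 in Tex15-/- testes. The MTD sequence matched at 5163 places and carried the name of L1Md_A, a LINE1 element, in 2 of the 6 libraries, although its letters were the same. The ORR1A0-int sequence likewise bore IAPLTR2 names, which belong to the ERVK class, in 3 of the 6 libraries.

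In the long RNA of gonocytes no member passed the test between the genotypes. Of the 9 members, 0 were called by edgeR at an adjusted p under 0.01 and 0 had an unadjusted p under 0.05, against 23 of 301 consensus sequences called (7.64%) and 63 (20.9%) with an unadjusted p under 0.05. Of the 23, 21 were higher (6.98% of all) and 2 lower (0.664%) in Tex15-/- gonocytes. DESeq2 called 0 of the members as well, against 11.9% of the consensus sequences to which it gave an adjusted p. The log2 fold changes of the members had a median of −0.26, against −0.02 for all consensus sequences tested, and 8 of the 9 were below 0, with adjusted p between 0.26 and 0.63.

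MERVL, the internal part with the open reading frames, was at 11403, 12784 and 12734 TMM-scaled CPM in the controls and at 12410, 9111 and 10433 in Tex15-/- gonocytes, and the groups overlapped (log2 fold change −0.21 ± 0.14 SE, edgeR adjusted p = 0.42). MERVL_LTR, its promoter, was at 3097, 3273 and 3610 against 3426, 2494 and 2405 (−0.26 ± 0.16, edgeR adjusted p = 0.38). Tex15-/- replicate 1 lay among the controls for both, and replicates 2 and 3 lay below them. MTA_Mm_LTR was at 10209, 10957 and 11466 in the controls and at 10668, 8102 and 8220 in Tex15-/- gonocytes (−0.27 ± 0.14, edgeR adjusted p = 0.29), replicates 2 and 3 again lying below the controls. MTB_Mm_LTR, of the next MT subfamily, was at 2618, 2828 and 2947 against 2640, 2089 and 2270.

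The ORR1 members, which are LTRs of the other MaLR branch, had log2 fold changes of −0.24 to −0.30 for ORR1A0, ORR1B1 and ORR1B2, and −0.41 and 0.52 for ORR1C1 and ORR1C2. ORR1A0 had a log2 fold change of −0.30 ± 0.15 SE (edgeR adjusted p = 0.26). For ORR1B1 (837, 822 and 812 against 755, 638 and 692 TMM-scaled CPM) and ORR1B2 (231, 253 and 268 against 229, 191 and 193) the groups did not overlap, which held for 8.31% of all consensus sequences in the same direction. ORR1C1 and ORR1C2 rested on few reads, 8 to 52 and 14 to 30 per library. The ORR1C2 values were 18.8, 24.6 and 18.8 against 23.02, 55.1 and 15.4, so that Tex15-/- replicate 2 alone lay above the controls.

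The scale mattered for these values. TMM sets the typical consensus sequence near no change, whereas as a share of all repeat reads the median of all consensus sequences was −0.39 on the log2 scale and that of the members −0.63. On that scale 8 of the 9 members were lower in every Tex15-/- library than in any control, as were 45.2% of all consensus sequences tested, and 0 members were called at an adjusted p under 0.01. At an adjusted p under 0.05, 7 of the 9 were called lower on that scale (the exceptions were ORR1C1 and ORR1C2), against 21.6% of all consensus sequences. With Tex15-/- replicate 1 left out, MERVL_LTR, MTA_Mm_LTR and ORR1A0 were called lower, and 4.52% of all consensus sequences were called in that direction. That fit rests on the replicates with the higher somatic marker sums, whose part in the result was not tested.

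**Figure D1:**
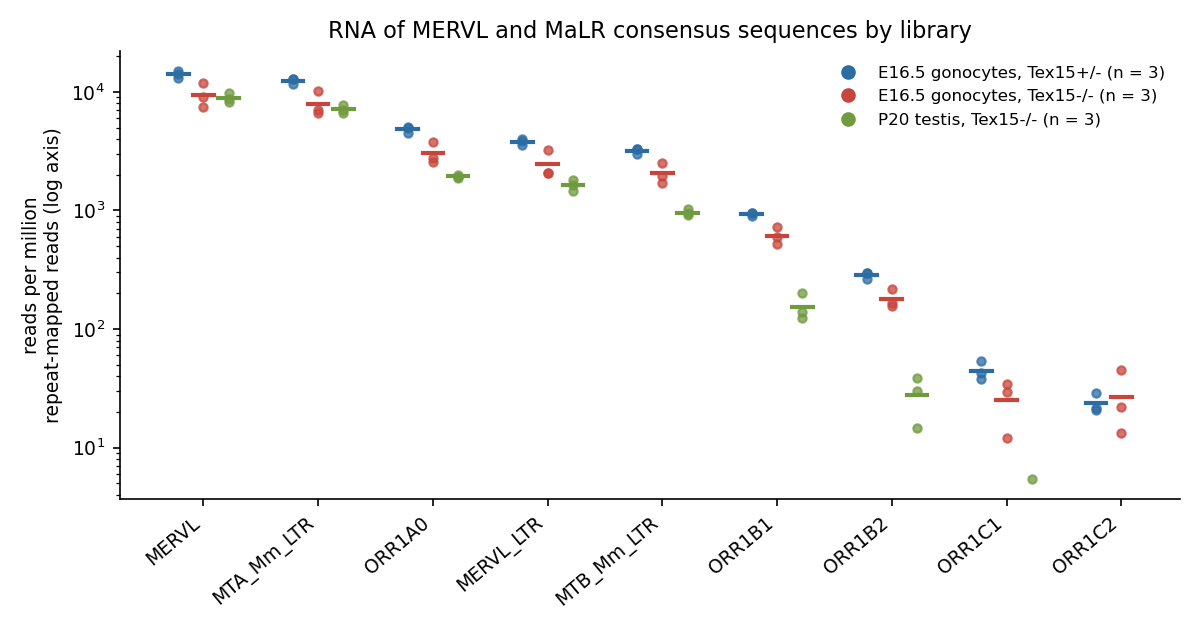
RNA of the 9 member consensus sequences as reads per 1000000 repeat-mapped reads on a log axis, by library (points) with group means (bars), for E16.5 Tex15+/- gonocytes, E16.5 Tex15-/- gonocytes and P20 Tex15-/- testes. On this scale the Tex15-/- gonocyte points lie below the control points for every member except ORR1C2. Values of 0 (ORR1C1 in 2 of the P20 libraries and ORR1C2 in all of them) cannot be drawn on a log axis, and the P20 libraries have no control.

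The shares of whole classes showed the same ranges. MERVL and MERVL_LTR together took 1.66, 1.88 and 1.81% of repeat reads in the controls and 1.51, 0.953 and 1.104% in Tex15-/- gonocytes, a mean share 33.4% lower. The MaLR members took 2.05, 2.25 and 2.22% against 1.75, 1.17 and 1.26%. Neither pair of groups overlapped (two-sided exact permutation p = 0.10 for each, the smallest that 3 against 3 libraries allow, with a Benjamini-Hochberg value of 0.15 over the 9 tests of class shares, ratios and read features and of 0.115 over all 61 such tests, subfamilies included). Fewer cells of a type and less RNA per cell cannot be told apart in these bulk libraries.

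The IAP and MMERVK10C consensus sequences (29 in number), of the ERVK class, took 9.24, 9.15 and 10.01% of repeat reads in the controls and 15.3, 11.99 and 18.2% in Tex15-/- gonocytes. The log2 ratio of MaLR RNA to them was −2.17, −2.02 and −2.17 in the controls and −3.13, −3.36 and −3.85 in Tex15-/- gonocytes, a difference of −1.32 (exact permutation p = 0.10). These elements were chosen because the paper reports on them. Their share was higher in every Tex15-/- library, so that the ratio holds their rise as well as any change of MaLR RNA. MERVL with its LTR against MaLR differed by 0.06 on the log2 scale, with overlapping groups (exact permutation p = 0.20). Against gene reads the groups overlapped: the members took 6336, 8228 and 7668 reads per 1000000 gene reads in the controls and 8292, 2467 and 4630 in Tex15-/- gonocytes, replicate 1 lying above every control.

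In P20 Tex15-/- testes the members together took 2.26, 1.93 and 2.03% of 338254 to 397378 repeat reads (mean 2.07% ± 0.17 SD, n = 3). MERVL was at 9718, 8210 and 8649 reads per 1000000 repeat reads and MTA_Mm_LTR at 7795, 6643 and 7044. ORR1C1 had 2 reads in replicate 1 and none in the others, which allows up to 8.87 and 7.55 reads per 1000000 there (3 counts per library, counting error only). Age, tissue and sorting all differ from the gonocyte libraries, so that no difference between the stages was tested.

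Genes known to be expressed together with MERVL in the 2-cell embryo had low counts or none in gonocytes of either genotype. Many belong to families of similar copies, such as Zscan4a to Zscan4f. How reads shared between copies were counted was not examined, so that low counts do not show a lack of expression. All 20 listed genes had a row, and only 2 passed the filter on low counts. Of the 20, 4 (Zscan4f, Tcstv1, Tcstv3 and Tdpoz4) were at 0 in all 6 libraries. That allows up to 0.527 to 0.613 CPM per library (counting error only). Usp17le, a deubiquitinase gene and the highest of the set, was at 4.74, 5.94 and 6.48 CPM in the controls and 4.75, 7.41 and 4.91 in Tex15-/- gonocytes (edgeR adjusted p = 0.998). Its relative Usp17la was at 1.28, 1.39 and 2.16 CPM in the controls and 0.396, 2.53 and 3.21 in Tex15-/- gonocytes (edgeR adjusted p = 0.88). Duxf3, the transcription factor that activates MERVL, had at most 1.08 CPM in any library. The 20 genes summed to 9.18 to 13.7 CPM in the controls and 7.58 to 13.2 in Tex15-/- gonocytes.

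The known regulators of MERVL were detected and none was called, though Dppa2 and Chaf1b were low, with means of 5.95 and 3.61 CPM over the 6 libraries. All 16 passed the filter, with 10 above and 6 below 0 and a median log2 fold change of 0.08 against 0.01 over all genes, and edgeR called 0 of 16311 genes at an adjusted p under 0.01 (0.0184% at 0.05, and DESeq2 0.0955% at 0.01). At an unadjusted p under 0.05 there were 2 of the 16, against 9.18% of all genes. One was Trim28, the corepressor that KRAB zinc finger proteins recruit, at 279, 220 and 257 CPM in the controls and 307, 301 and 314 in Tex15-/- gonocytes (log2 fold change 0.28 ± 0.10 SE, edgeR adjusted p = 0.47). The other was Ehmt2, the histone H3 lysine methyltransferase G9a, at 702, 578 and 547 against 729, 744 and 682 (0.24 ± 0.11, edgeR adjusted p = 0.54). Kdm1a, a histone demethylase that represses MERVL, was at 522, 451 and 465 against 491, 627 and 509, and Dppa4, an activator upstream of Duxf3, at 352, 344 and 368 against 350, 290 and 351.

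As a share of transposon reads, MERVL-int piRNAs overlapped between the genotypes, whereas those of MT2_Mm and most MaLR and other ERVL names lay lower in Tex15-/- testes, as most transposon names did. ERVL names took 2.06, 1.99 and 2.09% of transposon reads of 25 to 30 nt in the controls and 1.73, 1.38 and 1.47% in Tex15-/- testes, a mean 25.2% lower. MaLR names took 4.47, 4.45 and 5.29% against 2.69, 2.38 and 2.47%, a mean 46.9% lower. Neither pair of groups overlapped (two-sided exact permutation p = 0.10 each). Set against ERVK piRNAs, the log2 ratio of ERVL and MaLR was −2.27, −2.16 and −1.87 in the controls and −3.22, −3.53 and −3.38 in Tex15-/- testes, a difference of −1.27 (exact permutation p = 0.10), with ERVK names at 27.02 to 31.5% in the controls and 41.0 to 43.4% in Tex15-/- testes of transposon reads.

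MERVL-int and MT2_Mm together were at 11575, 12118 and 11929 ppm in the controls and at 11847, 8220 and 10521 ppm in Tex15-/- testes, and the groups overlapped (exact permutation p = 0.20). In each of the other 15 subfamilies every Tex15-/- library lay below every control, as for 73.6% of all transposon names on this scale. MTA was at 10118, 10963 and 11987 ppm against 7344, 4222 and 6823. ORR1A was at 8597, 8858 and 10853 ppm against 5027, 4328 and 4678, a ratio of means of 0.496, and the ratios ran from 0.435 for MTB to 0.782 for MLT1. In MLT1, sequences named outside ERVL and MaLR in another library held 4.91 to 5.73% of control reads and 20.4 to 38.4% of Tex15-/- reads. The difference between MERVL and MaLR was itself compared, a comparison chosen after these values were seen: the log2 ratio of MERVL-int and MT2_Mm to MaLR was −1.95, −1.88 and −2.15 in the controls and −1.18, −1.53 and −1.23 in Tex15-/- testes, 0.67 higher and without overlap (exact permutation p = 0.10). MERVL-int against its own LTR did not separate in this way: the log2 ratio of MERVL-int to MT2_Mm was 1.82, 1.796 and 1.83 in the controls and 2.32, 1.63 and 2.18 in Tex15-/- testes, 0.23 higher with overlapping groups (exact permutation p = 0.40). As reads per 1000000 reads of 18 to 32 nt, MERVL-int and MT2_Mm were at 2969, 3390 and 3158 against 3495, 1467 and 2761, so that Tex15-/- replicate 2 was the lowest and replicate 1 the highest of all 6.

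**Figure D2:**
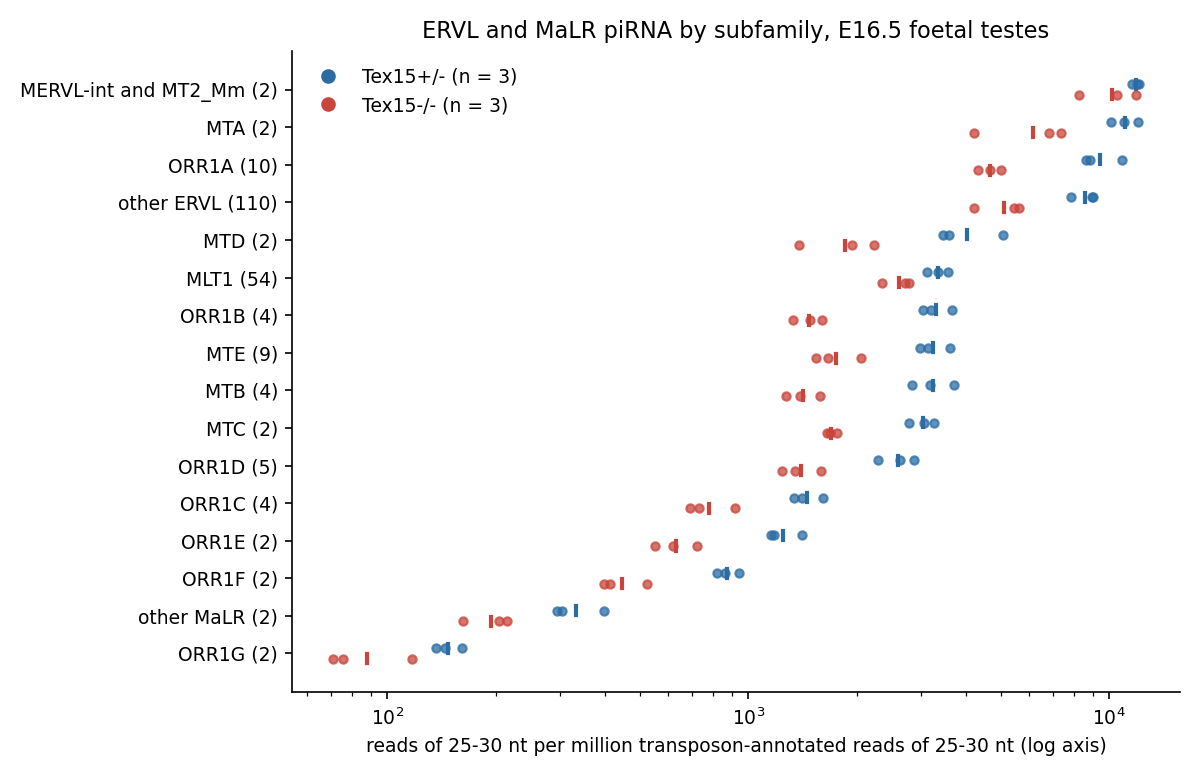
Reads per 1000000 transposon reads of 25 to 30 nt for each ERVL and MaLR subfamily on a log axis, with the number of names in brackets, 3 libraries per genotype as points and group means as bars. The groups overlap in the top row (MERVL-int and MT2_Mm) and in no other row.

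By name, the call depended on the scale. Under TMM, edgeR called 0 of the 181 members tested at an adjusted p under 0.01, and 30 had an unadjusted p under 0.05, against 1 of 749 names called in all (0.134%) and 178 (23.8%) with an unadjusted p under 0.05. DESeq2 called 4 of the members, MLT1E, MLT1G1 and MT2_Mm higher and ORR1A2 lower, against 13.6% of the names to which it gave an adjusted p. The median log2 fold change was −0.03 for the members and 0.00 for all names. As a share of transposon reads, without TMM, 1 member was called higher and 100 lower, against 0.668% of all names called higher and 49.9% called lower, and the medians were −0.90 for the members and −0.88 for all names. On that scale 149 of the 181 members lay lower in every Tex15-/- library than in any control, against 73.6% of all names, so that most names of other classes lay lower as well, and 2 lay higher, against 1.74%. With all reads of 18 to 32 nt or with miRNA reads as library size, 102 and 100 members were called lower, against 50% and 48.4% of all names. Under TMM, 31 members lay lower and 14 higher without overlap, against 17.0% and 16% of all names. The 35 members that did not pass the filter held 0.043% of member reads, at most 84 reads each.

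The 12 named members held 53.2 to 63.2% of all member reads. MERVL-int, the coding part of the retrovirus, was at 9014, 9409 and 9314 ppm in the controls and at 9871, 6214 and 8621 ppm in Tex15-/- testes, with overlapping groups and a log2 fold change of its share of −0.17. Under TMM it was 0.72 ± 0.24 SE higher without overlap (edgeR adjusted p = 0.15), and leaving out Tex15-/- replicate 2, the shallowest library, made it a call, as it did MLT1E and MLT1G1 (3.29% of all names were then called). MT2_Mm, its LTR, was at 2561, 2709 and 2615 ppm against 1977, 2006 and 1900, lower in every Tex15-/- library as a share and higher under TMM (0.45 ± 0.13, edgeR adjusted p = 0.12).

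Among the MT names, MTA_Mm-int was at 6195, 6667 and 6912 ppm in the controls and 5010, 2510 and 4445 in Tex15-/- testes. MTA_Mm, its LTR, was at 3923, 4296 and 5075 ppm against 2334, 1713 and 2378, and as a share it was called lower (log2 fold change −1.05, edgeR adjusted p without TMM = 0.0024). Both had overlapping groups under TMM. MTD, an older MT subfamily, was at 3350, 3197 and 4779 ppm against 2078, 1800 and 1236. In that subfamily, sequences named outside ERVL and MaLR in another library held 27.5, 29.7 and 42.8% of control reads. They held 41.1, 29.4 and 10.5% of Tex15-/- reads, so that the MTD values depend in part on the naming in each library. MTC was at 1911, 1885 and 2218 ppm against 1025, 957 and 991, and MTB at 1346, 1494 and 1655 against 686, 627 and 622.

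Among the ORR1 names, ORR1A2 had the lowest value relative to other names: 1871, 1888 and 2357 ppm in the controls against 852, 843 and 729, and −0.46 ± 0.12 SE under TMM (edgeR adjusted p = 0.097). ORR1B1 was at 1967, 1788 and 2082 ppm against 895, 943 and 792, and ORR1D1 at 1538, 1017 and 1218 against 564, 682 and 497. ORR1A0-int was at 1634, 1655 and 1959 ppm against 1399, 869 and 1414, but 51.8% of its reads were on sequences that bore a name outside ERVL and MaLR in another library. RMER15, an ERVL LTR outside the MT2 group, was at 1774, 1083 and 1231 ppm against 1237, 859 and 589, with overlapping groups.

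**Figure D3:**
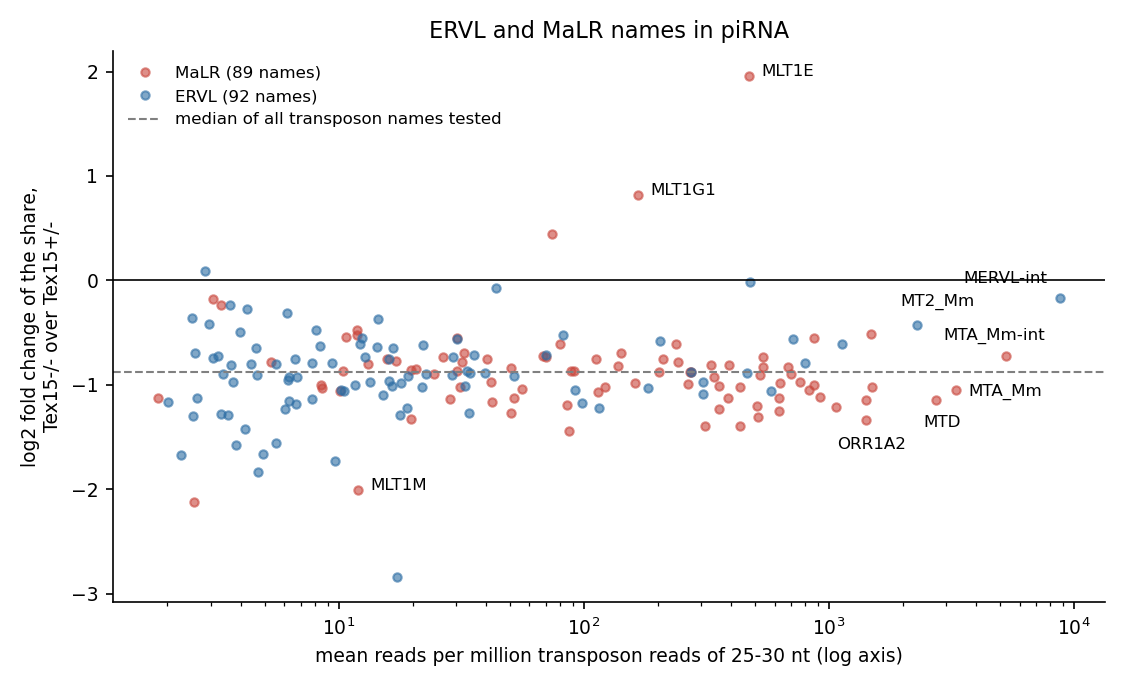
Log2 fold change of the share of transposon reads (Tex15-/- over Tex15+/-) against the mean share on a log axis for the 181 ERVL and MaLR names tested. The dashed line is the median of all 749 transposon names tested, −0.88. MERVL-int (−0.17) and MT2_Mm (−0.42) lie above it at the abundant end, ORR1A2 (−1.34) below it, and MLT1E (1.96) and MLT1G1 (0.82) stand above 0.

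The members that stood above 0 most clearly were names of MLT1, an old MaLR branch, and most of their reads lay on sequences that other annotations share. MLT1E was at 211, 180 and 188 ppm in the controls and 559, 600 and 1088 in Tex15-/- testes (log2 fold change under TMM 2.86 ± 0.35 SE, edgeR adjusted p = 0.011), and 87.8% of its reads were on sequences that bore a name of another class in another library. Its most abundant sequence matched the genome at 1603 places and was named MLT1E in 3 libraries and IAPEz-int, an IAP element, in 3 libraries, at 33.4, 32.8 and 44.2 ppm in the controls and 603, 277 and 475 in Tex15-/- testes whatever its name. With the sequences seen under another class in some library left out, MLT1E was still called (log2 fold change under TMM 1.46, edgeR adjusted p = 0.0094, against 0.802% of all names). That fit keeps every sequence seen in a single library, so that it cannot leave out all shared sequences. Over reads with a single exact genome match, MLT1E had a log2 fold change of −0.42 (edgeR adjusted p = 0.32). At an adjusted p under 0.05, MLT1E and MLT1G1 were the 2 members called by edgeR under TMM (3.2% of all names). At an adjusted p under 0.01, MLT1E was the 1 member called without Tex15-/- replicate 3 (0.265%), and MLT1E and MT2_Mm were the 2 called when each distinct sequence was counted once (3.98%).
MLT1E, also IAPEz-int: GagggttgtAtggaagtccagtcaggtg

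MLT1G1 was at 125, 129 and 106 ppm in the controls and 159, 324 and 157 in Tex15-/- testes (1.64 ± 0.26 under TMM, edgeR adjusted p = 0.025). Of its reads, 80.1% were a single sequence that has no exact match in the genome and lies within 2 mismatches of an annotated miRNA hairpin. In MTC-int, 30.5% of reads likewise matched annotated small RNAs, chiefly a snoRNA in the host gene Gas5 on the plus strand of chr1:161038351-161038377, where the sequence overlaps an exon of Gas5 and of the snoRNA Gm25789. It was at 181, 141 and 181 ppm in the controls and 121, 242 and 215 in Tex15-/- testes.
MLT1G1: TgaggttggTgtactgtgtgtgaat
MTC-int: TtacttgatGatagtaaaagatctgat

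Over all members, 16567 of the 147218 sequences seen in several libraries (11.3%) bore more than one name, and sequences named outside ERVL and MaLR in some library held 6.23% of member reads. Sequences with more than one name, within ERVL and MaLR or beyond, held 15.3% of member reads. A sequence seen in a single library cannot show a second name, so that these shares of reads, and those given for single names, are lower bounds.

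Over all members together, the letters and lengths of these piRNAs overlapped between the genotypes. U stood at position 1 in 76.4, 75.8 and 73.6% of member reads in the controls and in 75.6, 77.7 and 74.6% in Tex15-/- testes (exact permutation p = 0.60). A stood at position 10 in 38.3, 37.9 and 39.3% against 39.0, 34.1 and 38.1% (p = 0.50 by the same exact permutation test), and Tex15-/- replicate 2 held the low value. The mean length was 27.3 nt in each control and 27.2, 27.1 and 27.3 nt in Tex15-/- testes (exact permutation p = 0.30). The groups did not overlap in mean length when each distinct sequence was counted once (means of 27.21 nt in the controls and 27.16 nt in Tex15-/- testes) or when names shared with other classes were left out (27.26 and 27.18 nt, exact permutation p = 0.10 for each). Within subfamilies some groups did not overlap: of the 16, the mean length was lower in every Tex15-/- library in 10, A at position 10 lower in 5, and U at position 1 higher in 3 and lower in 1. The subfamily with lower U was MLT1, in which sequences named outside ERVL and MaLR in another library held a mean of 5.23% of control reads and 26.8% of Tex15-/- reads. In ORR1B, A at position 10 was found in 34.8 to 36.2% of control reads and 29.9 to 32.1% of Tex15-/- reads. In MERVL-int and MT2_Mm the mean length was 27.70 to 27.77 nt in the controls and 27.61 to 27.66 nt in Tex15-/- testes, a gap of under 1 nt. Among other classes, the mean length did not overlap in LINE1 (27.67 to 27.68 nt in the controls against 27.54 to 27.60 nt) and ERV1, and overlapped in SINE and ERVK. A at position 10 did not overlap in SINE (33.8 to 36.6% against 29.5 to 31.8%) and ERV1, and overlapped in LINE1 and ERVK. The share over subfamilies of those classes was not computed, so that nothing particular to ERVL and MaLR can be read from these counts.

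A at position 10 was found in 39.9 to 42.2% of MERVL-int and MT2_Mm reads, 43.1 to 47.0% of MTA reads and 44.4 to 47.6% of MTB reads over the 6 libraries, and in 24.2 to 28.5% of reads of MTE and 22.3 to 26.1% of ORR1E. U at position 1 was found in 67.8 to 71.3% of MERVL reads, 75.1 to 79.2% of MTA reads and 85.5 to 88.0% of MTE reads. Reads with a single genome match made up 5.03 to 6.11% of MERVL reads, 10.9 to 12.1% of MTA reads and 77.6 to 79.9% of MTE reads, and 74.9 to 77.2% of MERVL reads matched at more than 50 places. LINE1 piRNAs, for comparison, had A at position 10 in 44.1 to 50.2% of reads and all ERVL and MaLR names in 34.1 to 39.3%. In each library the 25 to 30 nt reads of MERVL peaked at 28 nt, those of MaLR at 27 nt in 5 libraries and at 26 nt in Tex15-/- replicate 2.

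MERVL piRNAs were placed on a full-length copy at chr1:10889635-10896071 (GRCm38.p6, plus strand), an intergenic element of 6437 bp with LTRs of 494 bp that are 100% identical and open reading frames of 1713 nt (positions 539 to 2251 of the copy) and 3135 nt (2666 to 5800). It is 1 of 591 clusters of full length found in the genome. With up to 3 mismatches, 97.9 to 98.3% of MERVL-int reads mapped to it, so that the map describes the family more than this locus. Reads came from both strands along the whole copy, and 31.3 to 34.3% were antisense. Sense MERVL-int reads started with U in 73.8 to 76.9% of cases and antisense MERVL-int reads in 54.8 to 59.1%, whereas A at position 10 was found in 31.8 to 34.5% of sense and 55.0 to 60.1% of antisense reads. Antisense reads thus held more A at position 10 and less U at position 1 than sense reads in all 6 libraries.

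Reads covered each part of the copy, and Tex15-/- replicate 2 had the highest share on the LTRs. The LTRs, 15.3% of the copy, held 21.7, 21.9 and 21.4% of mapped reads in the controls and 16.4, 24.1 and 17.8% in Tex15-/- testes, the first open reading frame (26.6% of the copy) held 23.3 to 26.5% over all libraries and the second (48.7%) 47.4 to 52.1%. The bin with most sense reads, positions 4201 to 4300, held 4.97, 3.63 and 3.39% in the controls and 4.27, 3.14 and 3.96% in Tex15-/- testes. The bin with most antisense reads, positions 3901 to 4000, held 2.20, 2.45 and 2.91% against 2.77, 3.26 and 3.62%. The groups overlapped in both, and by group means the same bins led in both genotypes. In single libraries another bin could lead: positions 301 to 400, in the LTR, held more sense reads in control replicate 3 (3.60%) and Tex15-/- replicate 2 (5.03%), and positions 2101 to 2200 more antisense reads in control replicate 1 (3.41%).

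**Figure D4:**
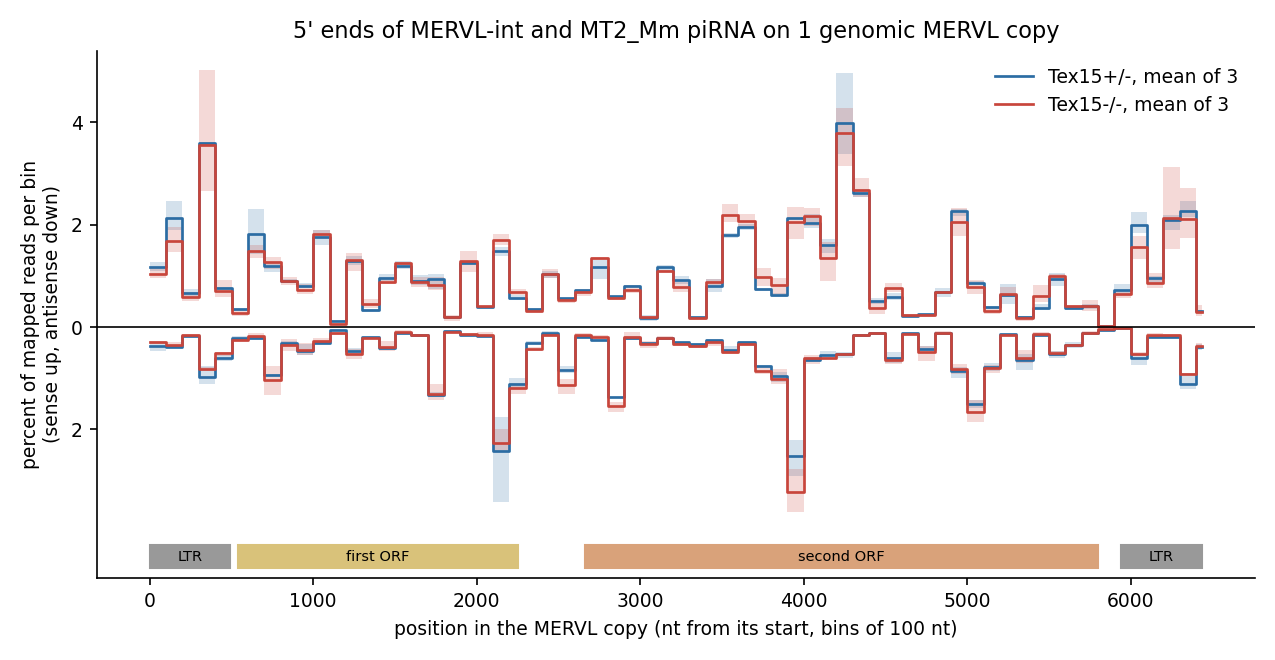
Percent of mapped MERVL-int and MT2_Mm reads of 25 to 30 nt whose 5′ end falls in each bin of 100 nt along a full-length MERVL copy, sense upwards and antisense downwards, as the mean of 3 libraries per genotype with the range shaded. Boxes mark the LTRs and the open reading frames. The lines of the genotypes run together, with peaks at 4201 to 4300 (sense) and 3901 to 4000 (antisense).

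Sense and antisense MERVL piRNAs overlapped by 10 nt at their 5′ ends more often than by any other length. Of read-weighted pairs that overlapped by 1 to 30 nt on the copy, 10.1, 12.5 and 13.3% overlapped by 10 nt in the controls and 12.3, 12.2 and 14.8% in Tex15-/- testes, and the next highest length, 26 or 27 nt, reached 5.22 to 8.66%. Counted by pairs of positions, 10 nt still led in each library, but by less. It took 4.28, 3.60 and 3.88% in the controls and 4.11, 4.67 and 4.01% in Tex15-/- testes, and the next length 3.54 to 3.72%. The groups overlapped by either count.

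Over reads of all members with a single genome match, in which most pairs were of MaLR, the 10-nt overlap took 17.2, 14.7 and 14.7% of read-weighted pairs in the controls and 9.69, 5.88 and 9.66% in Tex15-/- testes, without overlap of the groups. The pairs behind these values numbered 5333, 46039 and 14072 in the controls and 4102, 444 and 4089 in Tex15-/- testes, so that the value of Tex15-/- replicate 2 rests on 21 pairs of positions. Counted by pairs of positions and not by reads, the 10-nt overlap took 5.96, 4.86 and 5.91% against 5.49, 4.73 and 4.79%, and the groups overlapped. By positions 10 nt was the most frequent length in each control and in Tex15-/- replicate 1, whereas another length was more frequent in Tex15-/- replicates 2 (6.08%) and 3 (5.14%). The separation thus appeared only when pairs were weighted by reads.

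**Figure D5:**
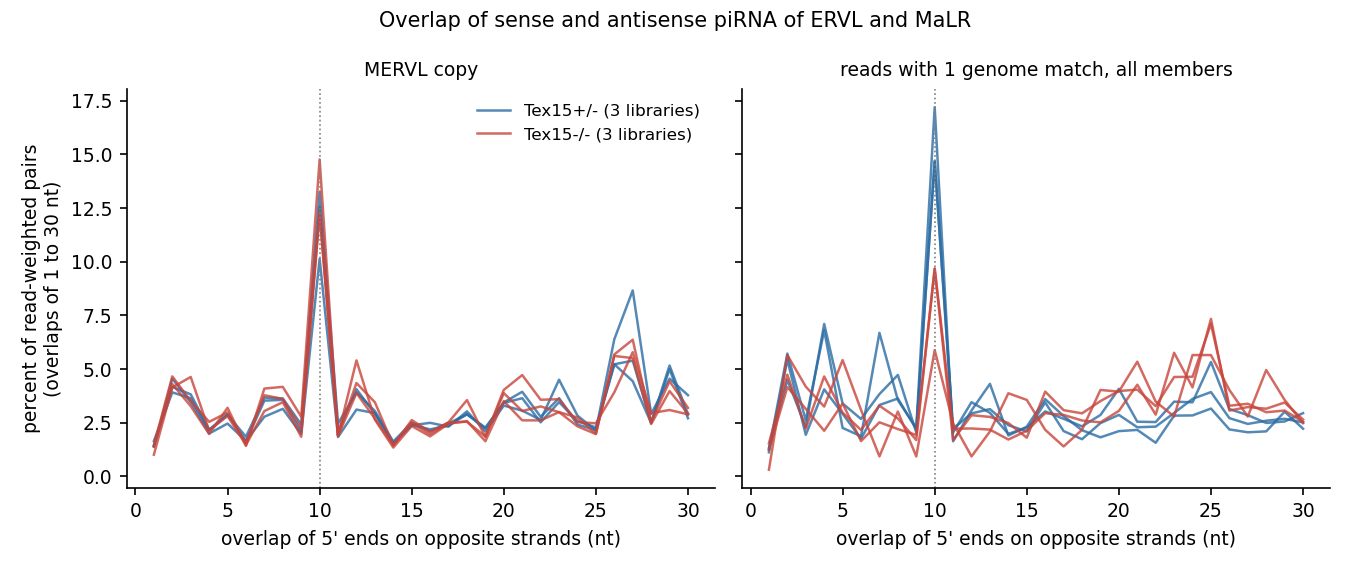
Percent of read-weighted pairs of opposite-strand piRNAs by the overlap of their 5′ ends (1 to 30 nt), on the MERVL copy (left) and for reads of all ERVL and MaLR names with a single genome match (right), with a line for each library. All lines on the left peak at 10 nt (10.1 to 14.8%), and on the right the peak is at 14.7 to 17.2% in Tex15+/- and 5.88 to 9.69% in Tex15-/- libraries, where the lowest library peaks only just above its next length (5.65%).

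Reads with a single genome match also showed where in the genome member piRNAs arose. They fell in 69535 windows of 10 kb, and the 12 windows with most reads held 6.24% of them, so that no single locus dominated. Of the 212 windows with a mean of at least 10 ppm, 153 (72.2%) were lower in every Tex15-/- library than in any control, 53 overlapped and 6 (2.83%) were higher. The lower share was near the 73.6% of all transposon names, and windows of other classes were not counted. In the exon of Tmem245 that holds its UTR, at chr4:56870704-56875884, member reads came from the strand of the gene, and 99.1% were MTA_Mm-int. They were at 158, 158 and 213 ppm in the controls and 63.02, 62.6 and 86.5 in Tex15-/- testes. In an intron of Skap1 at chr11:96692278-96699136, member reads (94.9% ORR1B1) were at 131, 118 and 116 ppm against 44.4, 32.1 and 36.7. At chr3:103235787-103239891, an intergenic stretch, member reads (97.1% ORR1B1) were at 124, 129 and 109 ppm against 71.1, 82.7 and 61.9.

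Of the 6 windows that were higher, 5 also had a mean of at least 10 ppm in the controls. The other, on chromosome 11, had a control mean of 2.88 ppm and passed only through its Tex15-/- reads. The 1 with most reads over all libraries is described after its values were seen. At chr6:16260887-16269828, intergenic, 98.7% of the reads were MERVL-int, on 576 distinct sequences, and they were at 27.4, 23.8 and 18.3 ppm in the controls and 124, 40.1 and 90.0 in Tex15-/- testes. The other 4 were led by ORR1A2, ORR1D1, MTA_Mm-int and ORR1A2-int, with group means of 10.7 to 26.8 ppm in the controls and 21.5 to 46.5 ppm in Tex15-/- testes. The most abundant sequence of the chromosome 6 window lies on the minus strand of chr6:16265639-16265666 and was at 0.566, 1.03 and 1.12 ppm in the controls and 7.07, 2.004 and 3.83 in Tex15-/- testes.
MERVL-int, chr6:16265639-16265666 (-): TggaatgttTgttgaagctcctggtagg

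Shorter reads with ERVL and MaLR names were of another kind. Of member reads of 18 to 24 nt, 67.8 to 79.5% lay within 2 mismatches of an annotated miRNA hairpin, tRNA, snoRNA, snRNA or rRNA, chiefly miRNA hairpins (61.0 to 65.6%). MERVL-int and MT2_Mm had 21.2 to 47.0% of such reads at 18 to 24 nt and none at 25 to 30 nt.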

How the data were processed

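For E16.5 gonocytes, the authors mapped RNA-seq reads to rodent repeat consensus sequences with Bowtie2 2.3.4.3 and to the genome with HISAT2, and deposited raw counts of reads per consensus and, from HTSeq 0.11.1, per gene. For small RNA of 15 to 40 nt, the authors trimmed reads with cutadapt 1.8.1, annotated them with Bowtie 1.2.1.1 and deposited the count of each sequence with its name. Each sequence carries 1 transposon name per library.

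Genotypes were compared on counts with edgeR 4.0.16 under R 4.3.3 (TMM, filterByExpr with a minimum count of 10 and total of 15, quasi-likelihood test, Benjamini-Hochberg over the whole table, call at 0.01). DESeq2 1.42.0 was the alternative. Rows that name no gene were left out. Values per library were compared by two-sided exact permutation tests (scipy 1.17.1). Sequences were matched exactly to GRCm38.p6, and MERVL reads to the copy with up to 3 mismatches. Annotated small RNAs (3612 RefSeq sequences) were searched with up to 2 mismatches. The tests were tried on simulated data. Gene symbols were found for 54723 of 54838 identifiers.

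Members, gene lists, tests and alternatives were chosen with earlier results of these data known. Named were MERVL and MT2, members with an adjusted p under 0.01, and the 12 members with most reads in RNA (here all 9) and in piRNA. Sequences shown are the most abundant of 8 such names. Genes named were those with an adjusted p under 0.05 and up to 6 with the highest CPM, and Trim28, Ehmt2, Usp17la, Usp17le, Duxf3 and further names, windows and sequences were picked after their values were seen. The alternatives of miRNA reads as library size, of leaving out names shared with other classes, of single genome matches and of leaving out small RNA matches were also chosen after the data were seen. Conditions not analysed here include P20 controls.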

Additional observations from a re-analysis of the deposited data

How the results depend on the processing

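The count of RNA members called by edgeR was 0 with TMM and ranged from 0 to 3 when each library was left out in turn, the 3 coming from the fit without Tex15-/- replicate 1. That fit called 4.52% of all consensus sequences lower. The count of RNA members was 0 under every other alternative run (no filter, no TMM, DESeq2, gene-based scaling, an adjusted p under 0.05, and the block). Gene-based scaling called 0 of 304 consensus sequences higher and 1 lower in all, so that its 0 says little about the members. The count of piRNA members called was 0 with TMM and 0 to 3 when libraries were left out. There were 3 calls without Tex15-/- replicate 2 (3.29% of all names) and 1 without replicate 3 (0.265%). It was 2 at an adjusted p under 0.05, 4 with DESeq2, 2 with each distinct sequence counted once, 1 with names shared with other classes left out, 101 without TMM, 103 with 18 to 32 nt reads as library size and 101 with miRNA reads as library size. In the other 10 alternatives the count of piRNA members stayed at 0, and each of those fits called at most 4 of all names. MERVL-linked genes gave 0 calls in all 11 alternatives. The main edgeR fit called 0 of 16311 genes in all, and did not call the edited Tex15 itself. Only 2 of the 20 listed 2-cell genes passed its filter. These counts of 0 thus do not show that the genes were unchanged.

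The shares, and their ratios to ERVK, kept their direction in every alternative run. With libraries left out, the difference in percentage points ran from −0.755 to −0.478 for ERVL RNA, −0.961 to −0.672 for MaLR RNA, −0.617 to −0.444 for ERVL piRNA and −2.36 to −1.94 for MaLR piRNA, and the log2 difference against ERVK from −1.48 to −1.12 in RNA and −1.36 to −1.16 in piRNA. The P20 share ran from 1.98 to 2.14%. U at position 1 differed by 0.69 percentage points and A at position 10 by −1.43, and these turned sign: U ran from −0.18 (without Tex15-/- replicate 2) to 1.37, with −0.12 without control replicate 3, and A from −2.40 to 0.055 (without Tex15-/- replicate 2). Mean length ran from −0.10 to −0.01 nt, and was −0.05 nt with distinct sequences and −0.08 nt with names shared with other classes left out.

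With the replicate number as a block, 0 members were called in RNA, 0 in piRNA and 0 MERVL-linked genes. In all, the block fits called 22 consensus sequences higher and 2 lower of 301, and 0 of 749 transposon names. The 0 for piRNA members therefore says nothing particular to them. Same-numbered libraries correlated by 0.10, 0.11 and 0.02 in repeat RNA and −0.24, −0.16 and 0.13 in piRNA. These are not correlations of raw levels, which were alike across libraries. In piRNA, raw subfamily shares ran from 136 (ORR1G) to 11575 ppm (MERVL-int and MT2_Mm) in control replicate 1. They ran from 75.5 to 11847 ppm for the same subfamilies in Tex15-/- replicate 1. In neither set did each library correlate best with its own number. With 3 pairs, the correlations cannot decide whether same-numbered libraries share a litter or were processed together. Limiting the piRNA fit to sequences with a single transposon name, or with none outside ERVL and MaLR within a library, was not run, since every sequence has 1 name per library. Exact permutation tests of 3 against 3 libraries cannot pass 0.05, consensus lengths were not given, so that levels were not compared between elements, and low-count members (ORR1C1, ORR1C2) and the overlap counts of Tex15-/- replicate 2 are limited by depth.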

Other observations

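The 3 sequences with most reads among those named differently between libraries were versions of the MTD sequence given above that differ in length at the 3′ end, and the version of 27 nt was named L1Md_A in 4 of 6 libraries, at 597, 761 and 796 ppm in the controls and 534, 383 and 498 ppm in Tex15-/- testes. MTD, whose reads fell on sequences with a name outside ERVL and MaLR for 32.8%, had a log2 fold change under TMM of −0.27, and of −0.15 (edgeR adjusted p = 0.44) with those sequences left out.

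The Gas5 window was the one with most single-match reads named ERVL or MaLR, at 257, 186 and 253 ppm in the controls and 172, 325 and 313 in Tex15-/- testes, and virtually all of them were small RNA matches. At chr14:14343974-14350024, exons of Il3ra (plus strand) and of the antisense RNA Gm48860 (minus strand) are annotated, and MTA_Mm-int led. Only 6.22% of its reads were on the plus strand, so that most lay on the strand of Gm48860 and opposite to Il3ra. Reads were at 112, 134 and 124 ppm against 121, 55.1 and 112. Thus 2 of the 3 Tex15-/- libraries lay within or next to the control range and replicate 2 below it.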
